A study of Mus musculus with 12 samples.

Results

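The response of mouse neutrophils to calcitonin gene-related peptide (CGRP), a peptide that sensory neurons release, was described across the transcriptome by comparing 3 RNA-seq libraries of CGRP-treated cells with 3 of saline-treated cells. These are 6 of the 12 libraries of the series, the rest being from macrophages. Neutrophils were enriched by negative selection from the bone marrow of C57BL/6 J mice of 8 to 12 weeks and kept for 4 h in serum-containing medium with 1 nM CGRP, or with PBS (saline) as the control. The labels name no transgene or deletion. Neither they nor the study's methods say whether the libraries of a group came from separate mice or cultures, so that p-values measure the spread between these libraries. The total count was 3299174, 3631989 and 2719556 in saline libraries 1 to 3 and 3269709, 3270388 and 2196558 in CGRP libraries 1 to 3, and counts had been freed of PCR copies by unique molecular identifiers. Levels of genes are given in TMM-scaled CPM, the count scaled to a common library size, on which scale a floor of 3 counts lay at 0.881 to 1.32 depending on the library. In brackets stand the log2 fold change (CGRP over saline) and the adjusted p of limma-voom, and levels in lists follow the order of the libraries. Of 52636 genes in the table, 9819 passed the filter on low counts and were tested. A gene could pass this filter through 1 group alone, and for such genes the fold rests on low counts in the other group. They are described below by gene family.

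CGRP acts on a receptor built from the calcitonin receptor-like receptor (*Calcrl*) and the accessory protein RAMP1 (*Ramp1*). The receptor couples to the stimulatory G protein Gs, which raises cyclic AMP, and cyclic AMP activates protein kinase A by releasing its catalytic subunits from the regulatory ones. Protein kinase A phosphorylates CREB, a transcription factor that binds cyclic AMP response elements in promoters, and in leukocytes a rise in cyclic AMP is best known for restraining the oxidative burst, degranulation and cytokine release.

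CGRP changed a small part of the neutrophil transcriptome. By limma-voom with Benjamini–Hochberg adjustment over all genes tested, 248 genes (2.53% of 9819) were differentially expressed (DEGs, adjusted p under 0.05), of which 148 (1.51%) were higher with CGRP and 100 (1.02%) lower. Without a filter on low counts the numbers were 155 higher and 152 lower. The response was mostly modest in size: 37 DEGs rose over 2-fold and 12 fell over 2-fold, while the median log2 fold change over all genes tested was 0.000801, with 90% of genes between -0.46 and 0.52. In 247 DEGs the 3 CGRP libraries lay entirely on one side of the 3 saline libraries, which was so for 17.8% of all genes tested. Among genes whose groups did not overlap and whose mean was at least 10 CPM, the largest rises were in *Ldhc* (12.7-fold), *Krt81*, *Thbs1*, *Il1r2*, *Krt83*, *B3gnt5*, *Tgm2*, *Nr4a2*, *Hdc*, *Oscp1*, *Fos* and *Sik3* (2.32-fold). The largest falls were in *Itgb3* (3.89-fold), *Itih5*, *Lpl*, *Mtss1*, *Pip5k1b*, *Hrh2*, *Cmpk2*, *Map3k8*, *Ubash3b*, *Hdac4*, *Arhgef3* and *Nqo2* (1.83-fold). The mean for this ranking was taken over the 6 libraries of both groups. *Krt81* (1.82 CPM), *B3gnt5*, *Nr4a2* and *Sik3* (9.81 CPM) stood under 10 CPM with saline and entered through their level with CGRP. Likewise *Itgb3*, *Itih5*, *Mtss1* and *Pip5k1b* stood under 10 CPM with CGRP and entered through their level with saline. The number of DEGs dropped to 138 without saline library 1, to 138 without saline library 2 and to 153 without CGRP library 2, and scaling by library totals in place of TMM gave 150 DEGs higher and 64 lower. In bulk RNA, fewer expressing cells and less RNA per cell cannot be told apart.

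**Figure D1:**
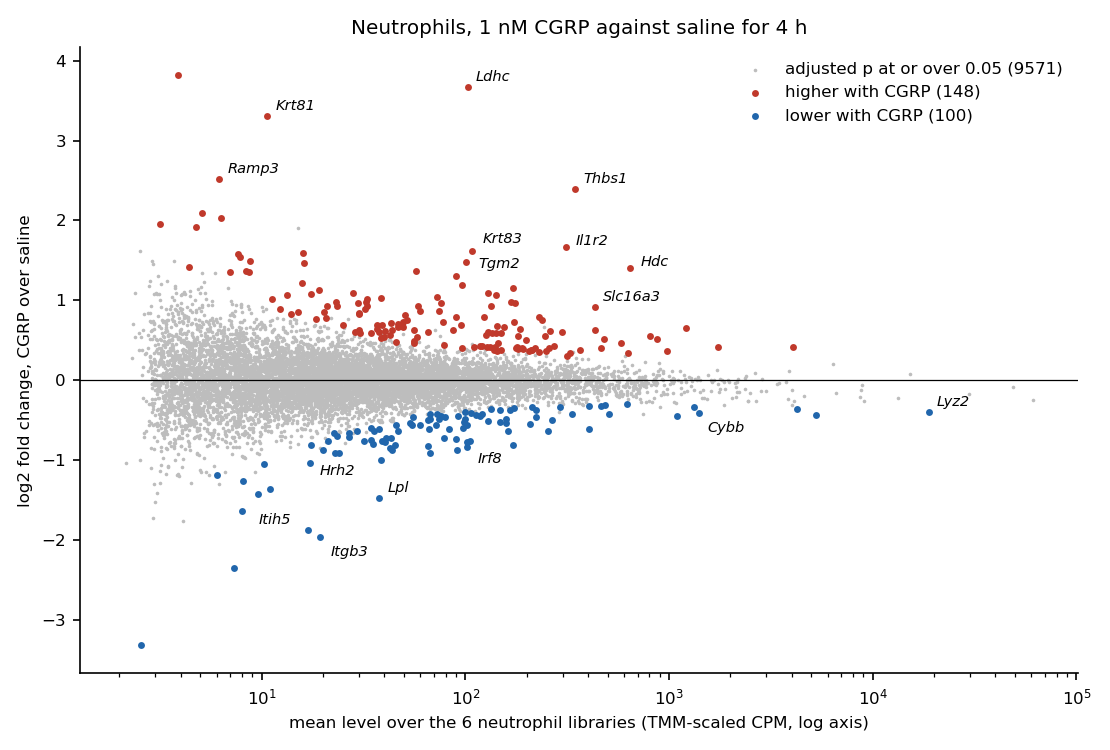
Each point is 1 of 9819 genes tested in neutrophils, with its mean TMM-scaled CPM over the 6 libraries on a log axis and its log2 fold change (CGRP over saline) on the vertical axis. Red points are the 148 DEGs higher with CGRP, led among those of at least 10 CPM by *Ldhc*, and blue points the 100 lower, led among those of at least 10 CPM by *Itgb3*.

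The libraries carried the neutrophil programme at a similar level in both groups. All 13 neutrophil markers were detected in every library, among them *S100a8*, *S100a9*, *Ngp*, *Camp*, *Ltf*, *Retnlg* and *Ly6g*. Together they took 184300, 216700 and 171100 CPM of the library total with saline and 193400, 174800 and 167700 CPM with CGRP. Of the 13, the interleukin-1 decoy receptor gene *Il1r2* rose and 0 fell. *Ly6g*, which encodes the surface antigen used to sort mouse neutrophils, stood at 844, 1009.9 and 699.6 CPM with saline and 762, 596 and 542 CPM with CGRP (adjusted p = 0.0663). Markers of other bone marrow cells were present at lower levels, and of 68 tested 0 were called by limma-voom, edgeR or DESeq2, with 8 at an unadjusted p under 0.05 in limma-voom, a level reached by 1257 (12.8%) of all genes tested. Monocyte and macrophage markers, of which *Ctss* was the most abundant and all 13 were detected, summed to 1683 to 1914 CPM with saline and 1683 to 1839 CPM with CGRP. Erythroid markers, 10 of 10 detected and led by *Hbb-bs*, summed to 6265 to 7208 CPM, and markers of progenitors and early granulocytes, 8 of 8 and led by *Elane*, to 3777 to 4200 CPM. Basophil and mast cell markers (8 of 8, led by *Prss34*) summed to 1003 to 1137 CPM, B cell markers (10 of 10, *Ighm*) to 692 to 819 CPM and eosinophil markers (9 of 9, *Prg2*) to 620 to 723 CPM. Platelet markers (11 of 12 above 0, with *Gp1ba* at 0, led by *Pf4*) summed to 138 to 208 CPM, markers of stroma and endothelium (6 of 6, *Col1a2*) to 70.6 to 92.7 CPM and dendritic cell markers (8 of 8, *Bst2*) to 64.0 to 75.1 CPM. In these 9 lists the sums of the groups overlapped. Markers of T and NK cells (9 of 9, led by *Nkg7*) summed to 111, 113 and 134 CPM with saline and 104, 88.1 and 110.2 CPM with CGRP, and their groups did not overlap. The part of this difference in the results below was not tested.

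**Figure D2:**
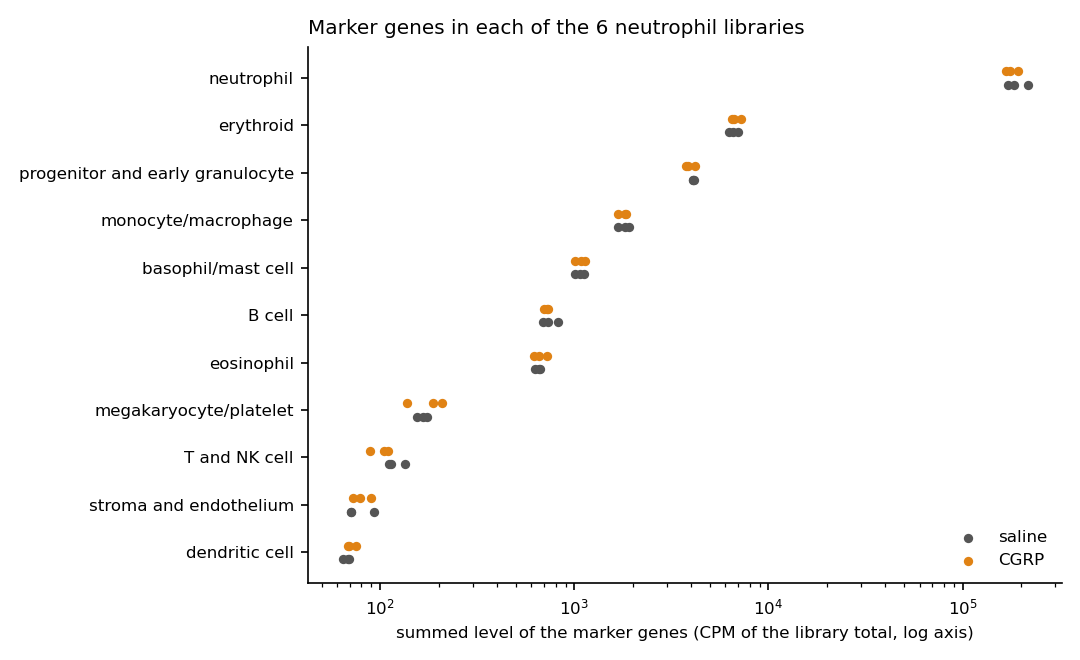
Summed level of the marker genes of 11 cell types, in CPM of the library total on a log axis, with 1 point for each of the 6 neutrophil libraries (grey, saline; orange, CGRP). Neutrophil markers sit between 167700 and 216700 CPM in every library, and the saline and CGRP points of the other lists lie close together.

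The accessory subunits of the receptor moved in opposite directions. *Ramp1*, the accessory subunit that CGRP binding requires, stood at 245, 270.4 and 260.0 CPM with saline and 199, 186 and 179 CPM with CGRP. The CGRP libraries were all below the saline libraries (log2 fold change -0.46 ± 0.09 SE, adjusted p = 0.00335). *Ramp3*, whose protein pairs with the same receptor to form a receptor for adrenomedullin, rose 5.74-fold (log2 fold change 2.52 ± 0.38 SE, adjusted p = 0.000327). It had 6, 5 and 5 counts in the saline libraries, against 34, 34 and 25 after CGRP, and passed the filter on low counts through the CGRP libraries. *Calcrl* itself had 96, 84 and 96 counts in the saline libraries, against 72, 63 and 33 after CGRP. This difference did not pass (log2 fold change -0.64 ± 0.19 SE, adjusted p = 0.0864). *Ramp2* and *Calcr* were below the filter on low counts. Among Gs-coupled receptors of neutrophils, the histamine H2 receptor gene *Hrh2* fell. It stood at 24.6, 24.3 and 20.3 CPM with saline and 9.55, 12.9 and 11.4 CPM with CGRP (log2 fold change -1.03 ± 0.21 SE, adjusted p = 0.00607). No CGRP library reached the lowest saline library.

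Of 14 tested genes for protein kinase A subunits, inhibitors and anchors and for Epac, 2 rose and 1 fell. *Prkar1a*, which encodes the regulatory subunit that holds the kinase inactive, stood at 332, 349.8 and 339 CPM with saline and 545, 509 and 530.1 CPM with CGRP (log2 fold change 0.63 ± 0.08 SE, adjusted p = 3.79e-05). All CGRP libraries were well above the highest saline library. Of the inhibitor peptides that block the free catalytic subunit, *Pkig* rose (log2 fold change 0.48, adjusted p = 0.0471). Another, *Pkib*, fell from 13.9 ± 0.712 to 5.17 ± 0.508 CPM (mean ± SD, n = 3, log2 fold change -1.42, adjusted p = 0.00343). The 9 tested cyclic nucleotide phosphodiesterases, which break down cyclic AMP or GMP, included 1 DEG. It was *Pde4b*, at 52.0, 47.7 and 56.3 CPM with saline and 71.7, 80.7 and 85.1 CPM with CGRP (log2 fold change 0.60 ± 0.12 SE, adjusted p = 0.00501), whose groups did not overlap. None of the 2 tested adenylyl cyclases or of the 14 G protein alpha, arrestin and receptor kinase genes passed by limma-voom, edgeR or DESeq2 (1 and 2 at an unadjusted p under 0.05 in limma-voom). Their most abundant members, *Adcy7* and *Gnai2*, had log2 fold changes of -0.41 and -0.15. Outside these lists, and picked after its values were seen, the arrestin-domain gene *Arrdc3* rose (log2 fold change 0.43, adjusted p = 0.0166). Across 9 alternative fits and 6 that each left out a library, 3 of the 8 genes named here as changed passed each time. *Ramp3* passed in the other 14 and was given no adjusted p by DESeq2, whereas *Hrh2*, *Pkig*, *Pde4b* and *Arrdc3* did not in at least 1 fit. Their highest adjusted p there was 0.0524 to 0.17.

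**Figure D3:**
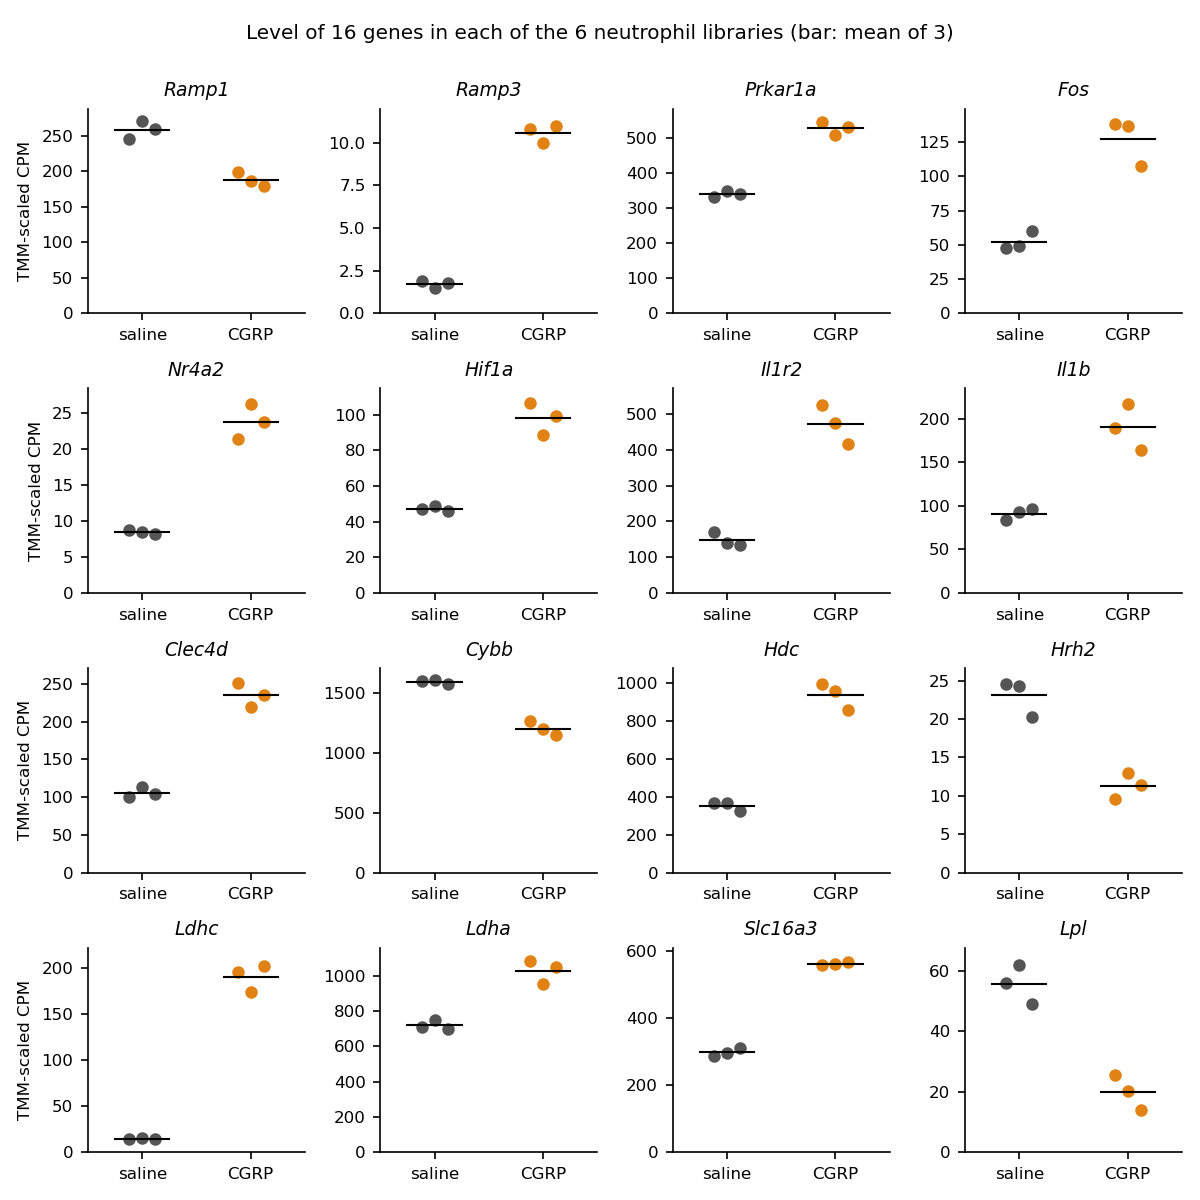
TMM-scaled CPM of 16 genes in each neutrophil library, 3 points for saline (grey) and 3 for CGRP (orange), with a bar at the mean and a linear axis from 0. In each panel the groups do not overlap, as for *Prkar1a* (332 to 349.8 CPM against 509 to 545 CPM) and *Cybb* (1576 to 1603 CPM against 1150.1 to 1261 CPM).

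Transcription factors known as immediate targets of cyclic AMP moved in part, while the group that binds its response element held 0 DEGs. Of 6 tested Fos and Jun genes, the subunits of AP-1, 3 rose and 0 fell. *Fos* stood at 48.0, 48.9 and 59.8 CPM with saline and 138, 137 and 108 CPM with CGRP (log2 fold change 1.30 ± 0.13 SE, adjusted p = 1.68e-06), and the CGRP libraries were all above the saline ones. *Fosl1*, which passed the filter on low counts through the CGRP libraries, rose from 4, 4 and 3 counts to 20, 13 and 12 counts (log2 fold change 1.95 ± 0.46 SE, adjusted p = 0.0221). *Junb* rose by less (log2 fold change 0.35, adjusted p = 0.0389). Of the 2 tested NR4A orphan nuclear receptors, *Nr4a2* rose. It stood at 8.72, 8.39 and 8.19 CPM with saline and 21.3, 26.1 and 23.7 CPM with CGRP (log2 fold change 1.47 ± 0.22 SE, adjusted p = 0.000279), without overlap between the groups. *Nr4a1* did not pass (log2 fold change -0.06, adjusted p = 0.947). The 23 tested genes of the CREB, CREM and ATF group and their coactivators held 0 DEGs, with 3 at an unadjusted p under 0.05 and a median log2 fold change of -0.05. Within it *Crem*, which encodes repressors that cyclic AMP induces in many cells, had a log2 fold change of 0.81 and an adjusted p of 0.0692. The 6 EGR and IER genes, the 10 genes of the Myc network and the 34 factors of the granulocyte lineage also held 0 DEGs by limma-voom, with 2, 2 and 7 genes at an unadjusted p under 0.05. DESeq2 called 0 genes in any of these groups, and edgeR called 1, *Nab1* of the EGR group.

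As examples of such response elements near start sites, 5 promoters of genes that rose are printed from RefSeq sequences (build GRCm38.p6). They were chosen and do not stand for the DEGs as a whole. For a gene with several listed promoters, a promoter holding the motif was taken. Each runs from 250 bases before to 50 after a start site and is read 5′ to 3′ on the gene's strand. For *Prkar1a*, *Ldha* and *Dusp1* the capitals mark the full cyclic AMP response element TGACGTCA, which reads the same on both strands, and for *Nr4a2* and *Fos* they mark its core TGACG or the reverse CGTCA.
*Prkar1a*, chr11:109650612-109650911, plus strand: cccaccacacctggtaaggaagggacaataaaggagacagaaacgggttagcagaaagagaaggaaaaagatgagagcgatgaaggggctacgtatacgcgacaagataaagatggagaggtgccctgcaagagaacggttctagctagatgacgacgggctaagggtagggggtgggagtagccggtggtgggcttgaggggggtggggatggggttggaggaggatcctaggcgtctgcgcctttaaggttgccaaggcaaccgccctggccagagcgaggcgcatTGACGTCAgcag
*Ldha*, chr7:46845554-46845853, plus strand: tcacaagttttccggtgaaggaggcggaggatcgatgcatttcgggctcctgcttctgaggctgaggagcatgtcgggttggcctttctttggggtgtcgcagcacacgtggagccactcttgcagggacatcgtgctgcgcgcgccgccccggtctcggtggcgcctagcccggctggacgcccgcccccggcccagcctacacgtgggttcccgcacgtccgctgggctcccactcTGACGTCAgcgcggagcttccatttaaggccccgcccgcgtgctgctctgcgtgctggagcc
*Dusp1*, chr17:26508423-26508722, minus strand: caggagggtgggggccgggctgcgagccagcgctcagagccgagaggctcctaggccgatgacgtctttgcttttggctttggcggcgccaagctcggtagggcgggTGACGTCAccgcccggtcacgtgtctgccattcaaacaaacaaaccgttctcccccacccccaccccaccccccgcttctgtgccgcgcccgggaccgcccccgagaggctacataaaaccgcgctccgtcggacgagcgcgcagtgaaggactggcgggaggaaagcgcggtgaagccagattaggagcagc
*Nr4a2*, chr2:57123954-57124253, minus strand: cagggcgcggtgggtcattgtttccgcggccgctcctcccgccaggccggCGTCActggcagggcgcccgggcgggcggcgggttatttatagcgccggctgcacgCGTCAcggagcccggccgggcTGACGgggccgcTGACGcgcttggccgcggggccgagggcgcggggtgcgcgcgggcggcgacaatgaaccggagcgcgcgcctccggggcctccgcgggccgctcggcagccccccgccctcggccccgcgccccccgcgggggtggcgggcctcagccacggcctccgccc
*Fos*, chr12:85473640-85473939, plus strand: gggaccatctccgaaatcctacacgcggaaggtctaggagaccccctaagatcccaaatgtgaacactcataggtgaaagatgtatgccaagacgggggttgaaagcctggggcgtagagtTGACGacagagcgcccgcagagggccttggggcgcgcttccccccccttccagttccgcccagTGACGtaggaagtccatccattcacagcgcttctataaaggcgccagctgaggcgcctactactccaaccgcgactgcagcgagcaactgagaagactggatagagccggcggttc
The full element began at position 38 after the start in *Prkar1a* (1 of 6 promoters listed for that gene). It began 12 bases before the start in *Ldha* (1 of 2 promoters listed) and 143 bases before it in *Dusp1*. In *Nr4a2* cores began at positions -200, -144, -123 and -111, and in *Fos* at -129 and -66. The full element stood in 4 of 120 higher DEGs with a listed promoter (3.33%), namely these 3 and *Zfp523*, and in 0 of 79 lower DEGs. It stood in 3.73% of the 7801 tested genes with a promoter and in 2.03% of the 27025 genes with a RefSeq promoter. The core, which the full element contains, stood in 37.5% of higher DEGs, 24.1% of lower DEGs and 37.4% of tested genes. The AP-1 site TGANTCA, searched on both strands, stood in 9.17%, 10.1% and 6.23% of the same 3 sets. A match is a description of the sequence and not of binding.

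Some genes for salt-inducible kinases and class IIa histone deacetylases also changed. Whether cyclic AMP acted through these kinases was not tested. Of 10 tested genes for class IIa histone deacetylases, these kinases and MEF2 factors, 1 rose and 2 fell. *Sik3*, a salt-inducible kinase that keeps the deacetylases in the cytoplasm, stood at 7.79, 8.09 and 13.5 CPM with saline and 21.02, 23.2 and 21.1 CPM with CGRP (log2 fold change 1.21 ± 0.23 SE, adjusted p = 0.00342). *Hdac4* stood at 87.5, 93.5 and 80.9 CPM with saline and 40.1, 52.5 and 47.8 CPM with CGRP (log2 fold change -0.90 ± 0.12 SE, adjusted p = 0.000164), and the groups were far apart. *Hdac5* fell by less, from 105 ± 4.34 to 78.9 ± 13.7 CPM (mean ± SD, n = 3, log2 fold change -0.45, adjusted p = 0.038). A pair of myeloid lineage factors fell. The interferon regulatory factor *Irf8*, which favours monocyte over granulocyte development, went from 131 ± 18.5 to 73.5 ± 4.77 CPM (mean ± SD, n = 3, log2 fold change -0.83, adjusted p = 0.000183). The Krüppel-like factor *Klf4*, also used in monocyte development, went from 49.3 ± 2.42 to 28.8 ± 4.63 CPM (mean ± SD, n = 3, log2 fold change -0.76, adjusted p = 0.00402). They were the only DEGs among 11 tested interferon regulatory factors and 11 Krüppel-like factors. Of 7 C/EBP factors *Cebpb*, used in emergency granulopoiesis, rose (log2 fold change 0.59, adjusted p = 0.00514). *Hif1a*, the oxygen-regulated subunit of hypoxia-inducible factor, was in no list and was picked after its values were seen. It stood at 47.0, 48.9 and 46.0 CPM with saline and 106, 88.6 and 99.2 CPM with CGRP (log2 fold change 1.04 ± 0.12 SE, adjusted p = 1.09e-05), with the CGRP libraries all above the saline libraries. Of the 11 transcription regulators named as changed in this and the first paragraph on them, 7 passed in every alternative and leave-one-out fit, and *Fosl1*, *Junb*, *Cebpb* and *Hdac5* did not (highest adjusted p 0.0788 to 0.258). *Junb* and *Cebpb* overlap *Prdx2* and *Tmem189*, which were not called, on the opposite strand. The strand setting of the counting is not given in the sources used here, so that reads of such pairs cannot be told apart.

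Of 11 tested dual specificity phosphatases, which inactivate MAP kinases, 2 rose and 0 fell by limma-voom and edgeR. DESeq2 did not call *Dusp1* and gave *Dusp5* no adjusted p. *Dusp1* stood at 85.0, 80.3 and 83.0 CPM with saline and 112, 109 and 108 CPM with CGRP (log2 fold change 0.41, adjusted p = 0.0249). *Dusp5*, specific for ERK, went from 4.61 ± 1.00 to 12.9 ± 2.03 CPM (mean ± SD, n = 3, log2 fold change 1.49, adjusted p = 0.00487). *Trib1*, a pseudokinase that steers proteins to degradation, rose from 24.9 ± 2.14 to 52.0 ± 6.07 CPM (mean ± SD, n = 3, log2 fold change 1.03, adjusted p = 0.000249), the only DEG of 3 tested Sprouty, Spred and Tribbles genes. Of 20 growth arrest genes, the stress gene *Gadd45g* rose (log2 fold change 0.87, adjusted p = 0.000376). The antiproliferative gene *Btg1* rose too (log2 fold change 0.40, adjusted p = 0.00784). Among 40 genes of the MAP kinase cascade, *Map2k3*, an activator of p38, rose (log2 fold change 0.40, adjusted p = 0.0115). *Map3k8*, the kinase that links Toll-like receptors to ERK, fell from 31.03 ± 1.31 to 16.7 ± 3.16 CPM (mean ± SD, n = 3, log2 fold change -0.91, adjusted p = 0.00511).

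The NF-kB group held 3 genes that rose and 1 that fell, *Map3k8* again, of 28 tested. The median log2 fold change of the group was positive (0.17). *Nfkb2*, the precursor of the p52 subunit, rose (log2 fold change 0.60, adjusted p = 0.0258), as did the signalling adaptor *Traf1* (log2 fold change 1.36, adjusted p = 0.0229). *Tnip3*, a partner of the inhibitor A20, rose as well (log2 fold change 0.90, adjusted p = 0.0437). In the STAT, JAK and SOCS group *Stat4* was the only DEG of 21 (log2 fold change 0.64, adjusted p = 0.0207). Tyrosine phosphatases fell in 2 of 20 cases and rose in 1. *Ptpn6*, which encodes the inhibitory phosphatase SHP-1, fell from 581 ± 44.2 to 434 ± 21.8 CPM (mean ± SD, n = 3, log2 fold change -0.42, adjusted p = 0.00499), and *Ptpn18* fell as well (log2 fold change -0.33, adjusted p = 0.0331). *Ptp4a1* rose (log2 fold change 0.77, adjusted p = 0.0397), but the end of its transcript is shared with another gene entry of the same name, so that the count is uncertain. *Dgkz*, a diacylglycerol kinase, fell (log2 fold change -0.50, adjusted p = 0.00982). Of the 15 signalling genes named as changed in the last 2 paragraphs, 2 passed in every alternative and leave-one-out fit (*Trib1* and *Gadd45g*), while the highest adjusted p of the other 13 lay between 0.0641 and 0.255. *Dusp1* overlaps *Ergic1* on the opposite strand, which had at most 60 counts in a library.

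The cytokine genes *Il1b* and *Il18* rose, and so did the decoy receptor for interleukin-1. Of 16 tested members, 3 rose and 0 fell. *Il1r2*, whose protein binds interleukin-1 without signalling, stood at 171, 140.3 and 134 CPM with saline and 526, 474 and 417 CPM with CGRP (log2 fold change 1.67 ± 0.10 SE, adjusted p = 1.41e-09). *Il1b*, the cytokine interleukin-1β, stood at 83.8, 92.9 and 96.9 CPM with saline and 189, 217 and 164 CPM with CGRP (log2 fold change 1.06 ± 0.11 SE, adjusted p = 3.22e-06). In both genes the lowest CGRP library was far above the highest saline library, and the rise was 3.19-fold for the decoy and 2.09-fold for the cytokine. *Il18*, a related cytokine, rose from 4.54 ± 0.881 to 12.2 ± 2.79 CPM (mean ± SD, n = 3, log2 fold change 1.37, adjusted p = 0.0159). The 13 other members, led in abundance by *Il1f9*, did not pass. Of 20 tested chemokine ligands only *Ccl9* was called, rising from 231 ± 10.2 to 313 ± 23.2 CPM (mean ± SD, n = 3, log2 fold change 0.43, adjusted p = 0.00525). Of 20 TNF ligands and receptors only *Ltb*, the lymphotoxin beta gene, was called, and it fell (log2 fold change -0.48, adjusted p = 0.0282). Of 18 chemokine and chemoattractant receptors, 2 rose and 2 fell. *Ccr1*, a receptor of several CC chemokines, rose and stood at 154, 165 and 120.4 CPM with saline and 234, 263 and 155 CPM with CGRP (log2 fold change 0.56, adjusted p = 0.0463). It was the 1 DEG whose groups overlapped, since CGRP library 3 lay within the range of the saline libraries. *Gpr35* rose too (log2 fold change 0.83, adjusted p = 0.0397). *Ccr2*, the receptor of the monocyte chemokine CCL2, fell from 312 ± 11.5 to 222 ± 14.4 CPM (mean ± SD, n = 3, log2 fold change -0.49, adjusted p = 0.00134). *Gpr84*, a receptor for medium-chain fatty acids, fell as well (log2 fold change -0.75, adjusted p = 0.00784). The 27 receptors of colony-stimulating factors and class I cytokines and the 21 genes of growth factors and of the TGF-beta family held 0 DEGs by limma-voom, edgeR and DESeq2 (4 and 1 at an unadjusted p under 0.05 in limma-voom). Leaving out a library or changing the method ended the call of *Il18*, *Ltb*, *Ccr1*, *Gpr35* and *Gpr84* in at least 1 fit (highest adjusted p 0.0556 to 0.417) and of none of the other 4.

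Several receptors that sense microbes rose with CGRP. *Cd14*, the co-receptor for lipopolysaccharide, stood at 167, 160.1 and 175 CPM with saline and 322, 267 and 281 CPM with CGRP (log2 fold change 0.79 ± 0.09 SE, adjusted p = 1.74e-05), and the groups were well apart. Of the 16 tested genes of the Toll-like receptor group, 3 rose and 1 fell. With *Cd14* rose *Tlr2*, a receptor for bacterial lipoproteins (log2 fold change 0.57, adjusted p = 0.027). The adaptor *Tirap*, overlapped on the other strand by *Srpr*, rose too (log2 fold change 0.46, adjusted p = 0.0331), and the peptidoglycan sensor *Nod1* fell (log2 fold change -0.46, adjusted p = 0.0436). Of 18 myeloid C-type lectin receptors, 4 rose and 1 fell. *Clec4d* and *Clec4e* encode the partners MCL and Mincle, which recognise mycobacterial and fungal glycolipids. *Clec4d* stood at 100.0, 113 and 104 CPM with saline and 251, 219 and 236 CPM with CGRP (log2 fold change 1.15 ± 0.09 SE, adjusted p = 1.31e-07). *Clec4e* stood at 123, 119 and 111 CPM with saline and 262, 220.4 and 212 CPM with CGRP (log2 fold change 0.97 ± 0.10 SE, adjusted p = 2.99e-06). In both, every CGRP library was far above the highest saline library. *Clec4n* (Dectin-2, a receptor for fungal mannans) also rose (log2 fold change 0.63, adjusted p = 0.00651), as did *Klrk1* (log2 fold change 1.36, adjusted p = 0.0214), the NKG2D gene, which was picked after its values were seen. *Clec12a*, an inhibitory receptor, went the other way, from 311 ± 12.2 to 200.1 ± 4.31 CPM (mean ± SD, n = 3, log2 fold change -0.63, adjusted p = 6.77e-05).

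In the 32 tested paired and inhibitory myeloid receptors 5 rose and 3 fell, and receptors known as inhibitory were found in both directions. *Trem1*, an amplifier of inflammatory signals, rose from 90.0 ± 3.00 to 156 ± 8.60 CPM (mean ± SD, n = 3, log2 fold change 0.80, adjusted p = 2.81e-05), which left the groups apart. The CD300 genes *Cd300lf* (log2 fold change 0.55, adjusted p = 0.00214) and *Cd300ld* (log2 fold change 0.50, adjusted p = 0.00217) rose too. The other 4 besides *Clec12a* were picked after their values were seen. The inhibitory receptor genes *Cd300a* (log2 fold change 0.37, adjusted p = 0.018) and *Cd200r1* (log2 fold change 0.78, adjusted p = 0.0225) rose. The inhibitory *Lair1* (log2 fold change -0.75, adjusted p = 0.00492) and *Siglece* (log2 fold change -0.42, adjusted p = 0.0461) fell, with 19.1% of the 31-base stretches in the last 500 bases of *Lair1* shared with other genes. *Lilr4b*, a leukocyte immunoglobulin-like receptor that the group did not include and that was picked after its values were seen, rose from 206 ± 10.9 to 317 ± 14.1 CPM (mean ± SD, n = 3, log2 fold change 0.62, adjusted p = 0.000114). Its count is uncertain, since 30.2% of these stretches occur in other genes, *Lilrb4a* foremost. Fc and complement receptors (15 tested) and MHC class II and costimulation genes (13 tested) held 0 DEGs by limma-voom, edgeR and DESeq2, with 2 and 4 genes at an unadjusted p under 0.05 in limma-voom. Of 57 interferon-stimulated genes 1 rose and 1 fell (3.51% called against 2.53% of all genes tested, median log2 fold change -0.07). *Cmpk2*, an interferon-induced nucleotide kinase, fell from 51.2 ± 6.19 to 25.4 ± 2.29 CPM (mean ± SD, n = 3, log2 fold change -0.99, adjusted p = 0.00037), and *Ifitm2* rose (log2 fold change 0.37, adjusted p = 0.0193). *Ifit1bl2*, a member of the IFIT family outside the group and picked after its values were seen, fell (log2 fold change -0.87, adjusted p = 0.0397). The count of *Ifitm2* is uncertain, since 51.5% of the stretches in its last 500 bases occur in other genes. Of 48 proteasome genes 2 fell, *Psmb8* (log2 fold change -0.34, adjusted p = 0.0249) and *Psmb9* (log2 fold change -0.43, adjusted p = 0.0207), both catalytic subunits of the immunoproteasome. *Psmb9* overlaps *Tap1* on the opposite strand. Among the 22 genes named in the 2 paragraphs on receptors as changed, 10 passed in each of the 15 other fits, and *Tlr2*, *Tirap*, *Nod1*, *Clec4n*, *Klrk1*, *Cd300a*, *Cd200r1*, *Siglece*, *Ifitm2*, *Psmb8*, *Psmb9* and *Ifit1bl2* failed in at least 1 (highest adjusted p 0.0596 to 0.2).

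Genes of the oxidase that makes superoxide were among those that fell. Of 9 tested NADPH oxidase genes, 0 rose and 2 fell. *Cybb*, the catalytic subunit, stood at 1595, 1603 and 1576 CPM with saline and 1261, 1195 and 1150.1 CPM with CGRP (log2 fold change -0.41 ± 0.07 SE, adjusted p = 0.00266). *Hvcn1*, the voltage-gated proton channel that balances the charge the oxidase moves, stood at 193, 202 and 193 CPM with saline and 135, 111 and 135 CPM with CGRP (log2 fold change -0.64 ± 0.10 SE, adjusted p = 0.000357). In neither did a CGRP library reach the lowest saline library, and the fall was 1.32-fold and 1.56-fold. Among specific and gelatinase granule genes, *Ceacam10* fell beside *Cybb* (log2 fold change -0.55, adjusted p = 0.00343). The metalloproteinase gene *Adam8* rose (log2 fold change 0.64, adjusted p = 0.000249). Of the 32 genes tested in this group, 24 had a negative log2 fold change and the median was -0.12. In the 13 azurophil granule genes *Lyz2*, lysozyme, fell (log2 fold change -0.39, adjusted p = 0.0296), and 36.2% of the stretches in its last 500 bases also occur in other genes, *Lyz1* foremost. The granule proteoglycan gene *Srgn* (log2 fold change 0.65, adjusted p = 0.000343) and the coagulation factor gene *F5* (log2 fold change 0.59, adjusted p = 0.000847) rose and were picked after their values were seen. Among 15 S100 and annexin genes *Anxa1* (log2 fold change -0.36, adjusted p = 0.0491) and *Anxa2* (log2 fold change -0.33, adjusted p = 0.0258) fell. *S100a8* did not pass (log2 fold change -0.25, adjusted p = 0.499), nor did *S100a9* (log2 fold change -0.17, adjusted p = 0.528).

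Among enzymes that make mediators, histamine synthesis gave the clearest change. Histidine decarboxylase (*Hdc*), the enzyme that makes histamine, stood at 369, 368 and 324 CPM with saline and 993, 959 and 855 CPM with CGRP (log2 fold change 1.40 ± 0.08 SE, adjusted p = 1.17e-09). The CGRP libraries were each more than 2-fold above the highest saline library, while the histamine receptor *Hrh2* fell as given above. In the same group of 13 genes the spermine oxidase *Smox* rose (log2 fold change 0.54, adjusted p = 0.0361). *Azin1*, which raises polyamine synthesis by binding antizyme, rose too (log2 fold change 0.41, adjusted p = 0.0173). Of 23 prostaglandin and leukotriene genes, 0 rose and 2 fell. These were the cyclooxygenase-1 gene *Ptgs1* (log2 fold change -0.56, adjusted p = 0.0104) and the prostaglandin-degrading *Hpgd* (log2 fold change -0.72, adjusted p = 0.0129). Of 41 antioxidant and heme-handling genes 3 rose and 1 fell. *Slc7a11*, which imports cystine for glutathione, rose from 21.7 ± 0.646 to 44.0 ± 3.88 CPM (mean ± SD, n = 3, log2 fold change 1.02, adjusted p = 0.000327). The peroxiredoxin *Prdx6* rose (log2 fold change 0.52, adjusted p = 0.000415), and so did the ferritin heavy chain *Fth1* (log2 fold change 0.42, adjusted p = 0.00895), with 22.6% of the stretches in its last 500 bases shared with other genes. *Gpx1*, a glutathione peroxidase, fell (log2 fold change -0.43, adjusted p = 0.0131). Of the 19 effector and mediator genes named as changed, *Lyz2*, *Anxa1*, *Anxa2*, *Ptgs1*, *Hpgd*, *Smox*, *Azin1*, *Hrh2*, *Fth1* and *Gpx1* lost the call in at least 1 alternative or leave-one-out fit (highest adjusted p 0.0524 to 0.25), and the other 9 in none.

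Lactate metabolism held the largest rise among DEGs with a mean of at least 10 CPM. *Ldhc*, the lactate dehydrogenase subunit known from testis, stood at 14.02, 15.3 and 14.96 CPM with saline and 196, 173 and 202 CPM with CGRP, a 12.7-fold rise (log2 fold change 3.67 ± 0.16 SE, adjusted p = 6.31e-12). No saline library exceeded 15.3 CPM and no CGRP library was under 173 CPM. *Ldhc* lies 5575 bases downstream of *Ldha* on the same strand (chr7:46861203-46878142 and chr7:46841475-46855627, GRCm38, plus strand), and none of the 31-base stretches in its last 500 bases occurs in another gene. *Ldha*, the main subunit that reduces pyruvate to lactate, stood at 712, 747 and 696 CPM with saline and 1084, 952 and 1049 CPM with CGRP (log2 fold change 0.51 ± 0.08 SE, adjusted p = 0.00037). *Slc16a3* (MCT4), which exports lactate, stood at 288, 296 and 313 CPM with saline and 559, 563 and 568 CPM with CGRP (log2 fold change 0.92 ± 0.08 SE, adjusted p = 2.18e-07). In all 3 the groups were well apart, and the other 36 of 39 tested genes of glycolysis and lactate did not pass, *Ldhb* (log2 fold change -0.02) among them. The 11 pentose phosphate genes had a negative log2 fold change in each case, of -0.50 to -0.07, with 0 DEGs by limma-voom, edgeR and DESeq2 and 4 genes at an unadjusted p under 0.05. In the citric acid cycle group of 27, *Acod1*, which diverts aconitate to itaconate, was the only DEG, rising from 4.00 ± 0.940 to 11.7 ± 2.08 CPM (mean ± SD, n = 3, log2 fold change 1.55, adjusted p = 0.00586).

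Both genes for the last step of triglyceride synthesis rose, and a lipase gene fell. Of 27 tested triglyceride and lipid droplet genes 3 rose and 2 fell. *Dgat1*, whose enzyme adds the last fatty acid, stood at 116, 111 and 111 CPM with saline and 212, 250.1 and 204 CPM with CGRP (log2 fold change 0.98 ± 0.10 SE, adjusted p = 2.43e-06). *Dgat2* stood at 169, 181 and 177 CPM with saline and 309.6, 298 and 284 CPM with CGRP (log2 fold change 0.76 ± 0.08 SE, adjusted p = 9.01e-06). *G0s2*, an inhibitor of the lipase ATGL, rose (log2 fold change 0.37, adjusted p = 0.0352) and was picked after its values were seen. Lipoprotein lipase (*Lpl*), which frees fatty acids outside the cell, stood at 56.1, 62.0 and 49.2 CPM with saline and 25.5, 20.3 and 14.04 CPM with CGRP (log2 fold change -1.48 ± 0.18 SE, adjusted p = 3.83e-05). *Acadl*, of mitochondrial fatty acid oxidation, fell from 97.7 ± 5.20 to 59.2 ± 4.03 CPM (mean ± SD, n = 3, log2 fold change -0.72, adjusted p = 0.000376). For each of these 5 genes the groups did not overlap. Ectoenzymes that turn extracellular ATP into adenosine rose. *Entpd1* (CD39) went from 102 ± 10.1 to 151 ± 19.9 CPM (mean ± SD, n = 3, log2 fold change 0.57, adjusted p = 0.0042) and *Nt5e* (CD73) from 22.8 ± 3.71 to 43.1 ± 4.45 CPM (mean ± SD, n = 3, log2 fold change 0.94, adjusted p = 0.0014). Adenosine deaminase (*Ada*), which removes adenosine, fell (log2 fold change -0.76, adjusted p = 0.0372), and the 12 other tested purinergic genes did not pass. Solute carriers of the Slc families, without the Slco genes, held 5 DEGs higher and 2 lower of 117. Besides *Slc16a3* and *Slc7a11*, the fatty acid transporter *Slc27a4* rose (log2 fold change 0.97, adjusted p = 0.000327). So did *Slc15a3*, a peptide and histidine transporter (log2 fold change 0.60, adjusted p = 0.00105), and *Slc16a6* (log2 fold change 0.67, adjusted p = 0.00866). The choline transporter-like *Slc44a2* (log2 fold change -0.74, adjusted p = 0.000168) and the nucleotide transporter *Slc17a9* (log2 fold change -0.59, adjusted p = 0.0476) fell. The organic anion transporter *Slco4a1*, which passed the filter on low counts through the saline libraries, fell from 12.1 ± 1.15 to 2.45 ± 1.47 CPM (mean ± SD, n = 3, log2 fold change -2.34, adjusted p = 0.000811). *Slc15a3*, *Slc16a6*, *Slc17a9* and *Slco4a1* were picked after their values were seen, and 17.0% of the stretches in the last 500 bases of *Slc44a2* occur in other genes. *Slc16a6* overlaps *Amz2* and *Arsg*, which were not called, on the opposite strand. *Abcb1a*, the P-glycoprotein efflux pump, was the only DEG of 24 ABC transporters and rose (log2 fold change 2.10, adjusted p = 0.00423). Among 24 lysosomal genes the acid lipase *Lipa* fell (log2 fold change -0.63, adjusted p = 0.0127) and the protease *Ctsl* rose (log2 fold change 0.37, adjusted p = 0.0296). Of the 21 metabolic genes and transporters named as changed, 12 passed in each of the 15 other fits, *Slco4a1* in 14 with no adjusted p given by DESeq2, and *G0s2*, *Acod1*, *Ada*, *Slc16a6*, *Slc17a9*, *Abcb1a*, *Lipa* and *Ctsl* did not (highest adjusted p 0.0731 to 0.189).

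**Figure D4:**
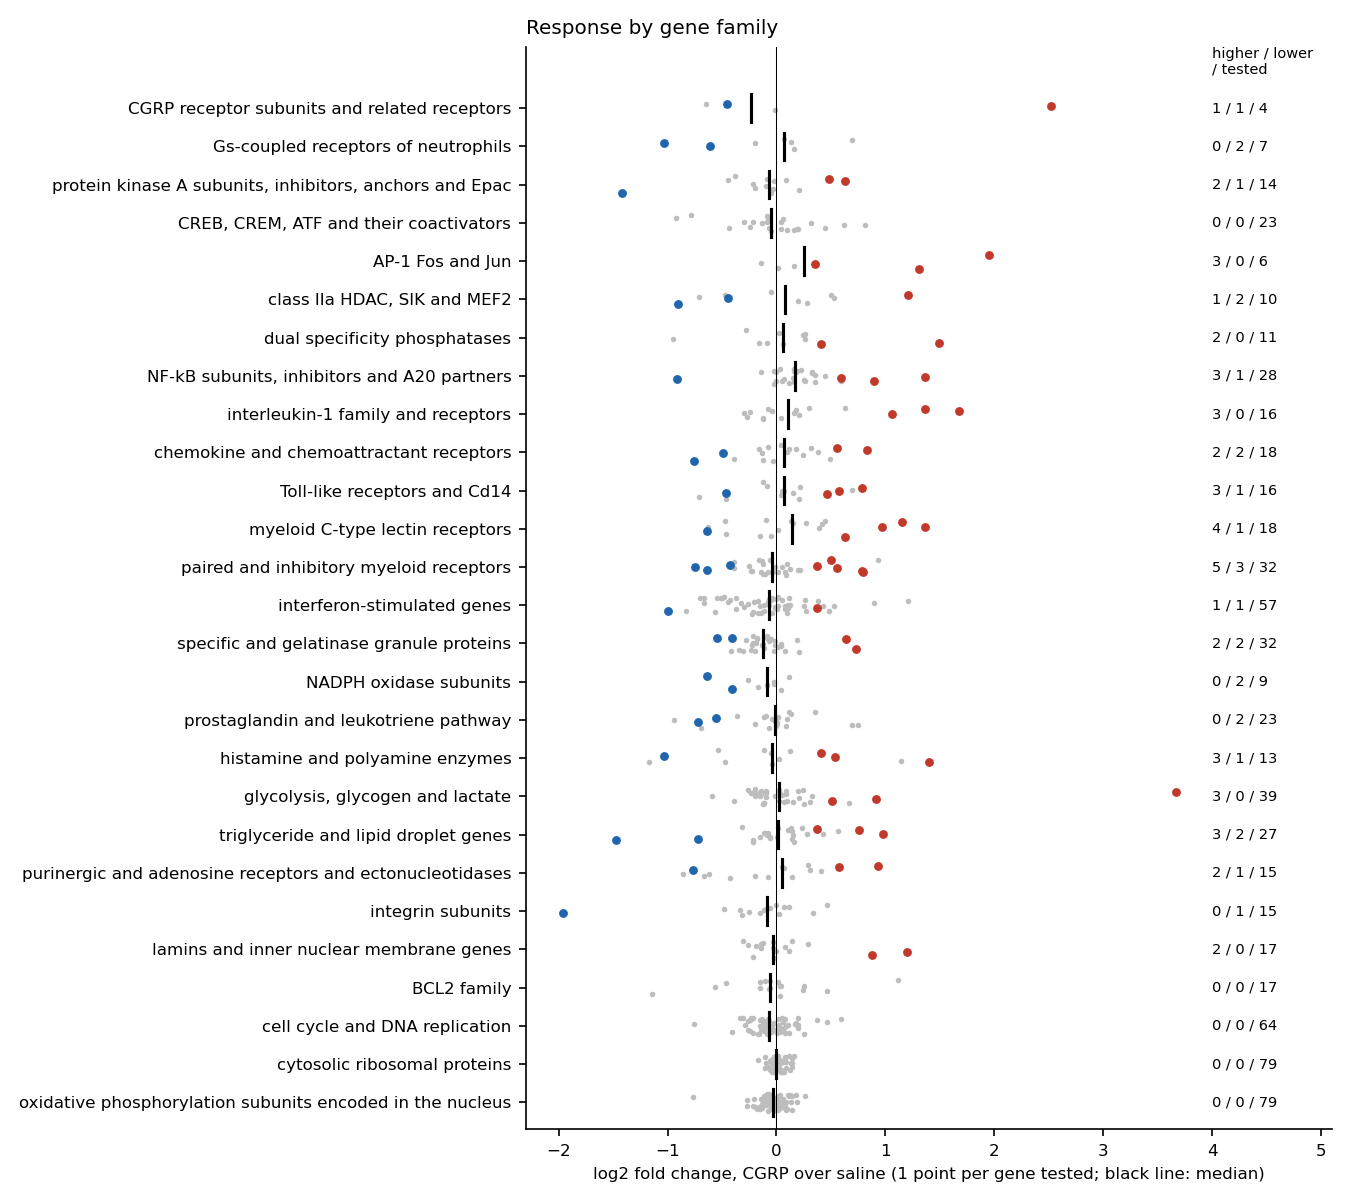
Log2 fold change (CGRP over saline) of every tested member of 27 gene families, 1 point per gene, with the family median as a black line and the counts of DEGs higher, DEGs lower and genes tested at the right. Red and blue points are DEGs higher and lower with CGRP. Single members stand out from families whose medians lie between -0.23 and 0.26, against a median of 0.000801 over all genes tested.

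Among adhesion and matrix genes large changes were found in both directions. *Thbs1*, thrombospondin-1, stood at 111, 102 and 116 CPM with saline and 665, 624 and 455 CPM with CGRP (log2 fold change 2.39 ± 0.12 SE, adjusted p = 6.07e-11). The crosslinking enzyme *Tgm2*, overlapped on the other strand by *Rprd1b*, stood at 55.4, 58.2 and 45.2 CPM with saline and 159, 145 and 139.5 CPM with CGRP (log2 fold change 1.48 ± 0.11 SE, adjusted p = 7.16e-08). The CGRP libraries of both lay far above the saline libraries. *Itgb3*, the beta3 integrin subunit, stood at 33.3, 33.3 and 25.6 CPM with saline and 10.8, 7.93 and 4.83 CPM with CGRP (log2 fold change -1.96 ± 0.26 SE, adjusted p = 7.51e-05), the only DEG among 15 integrin genes. *Itgb3* is abundant in platelets, whose markers summed to 167, 154 and 173 CPM with saline and 187, 138 and 208 CPM with CGRP. These 3 genes belong to a group of 31 efferocytosis genes, receptors and bridging molecules by which dead cells are taken up, in which 4 rose and 2 fell. The other 3 were *Cd14* and *Clu* (clusterin, log2 fold change 0.98, adjusted p = 0.0468, picked after its values were seen), which rose, and *Anxa1*, which fell. Of 31 genes for selectins, their ligands, cytohesins and junctional adhesion, 5 rose and 1 fell. *Cytip*, which binds cytohesins, stood at 139.6, 135 and 117 CPM with saline and 235, 240.1 and 174 CPM with CGRP (log2 fold change 0.73 ± 0.11 SE, adjusted p = 0.000553), and the groups did not overlap. The cytohesins *Cyth1* (log2 fold change 0.93, adjusted p = 0.000156) and *Cyth3* (log2 fold change 1.01, adjusted p = 0.0245), which activate Arf GTPases, rose as well. *Jaml*, a junctional adhesion molecule (log2 fold change 0.41, adjusted p = 0.0164), and the tetraspanin *Cd9* (log2 fold change 0.35, adjusted p = 0.0196) also rose. The sialyltransferase *St3gal6*, which helps to make selectin ligands, fell (log2 fold change -0.66, adjusted p = 0.0464). *Cyth3* and *St3gal6* were picked after their values were seen.

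In the nucleus and the cytoskeleton single genes stood out from families that otherwise did not pass. *Lmnb1*, lamin B1, stood at 60.4, 60.2 and 54.5 CPM with saline and 146, 133 and 123 CPM with CGRP (log2 fold change 1.20 ± 0.11 SE, adjusted p = 6.13e-07). *Emd*, emerin of the inner nuclear membrane, went from 52.5 ± 9.91 to 95.5 ± 10.2 CPM (mean ± SD, n = 3, log2 fold change 0.87, adjusted p = 0.000343), while the other 15 of 17 genes of this group did not pass. Of 113 keratin and keratin-associated genes, 6 were tested and 2 rose, the hair keratins *Krt81* and *Krt83*. *Krt81*, which passed the filter on low counts through the CGRP libraries, rose from 6, 6 and 5 counts to 79, 69 and 29 counts (log2 fold change 3.30 ± 0.42 SE, adjusted p = 6.31e-05). *Krt83* stood at 43.3, 56.1 and 60.9 CPM with saline and 169, 177 and 139 CPM with CGRP (log2 fold change 1.62 ± 0.13 SE, adjusted p = 1.02e-07). *Krt86*, which lies between them on chromosome 15, stood at 4.67, 5.40 and 7.84 CPM with saline and 5.73, 6.16 and 7.46 CPM with CGRP, with groups that overlap (log2 fold change 0.13, adjusted p = 0.912). Of 10 tubulins *Tubb6* rose (log2 fold change 0.61, adjusted p = 0.02), and of 46 actin and myosin genes the severing protein gene *Gsn* fell (log2 fold change -0.32, adjusted p = 0.0424). The myosin gene *Myo1f*, outside this group and picked after its values were seen, fell too (log2 fold change -0.30, adjusted p = 0.0448). Regulators of small GTPases were among the genes that fell. The exchange factor *Arhgef3* stood at 118, 126 and 108 CPM with saline and 65.9, 60.5 and 66.7 CPM with CGRP (log2 fold change -0.87 ± 0.11 SE, adjusted p = 4.08e-05). The activating proteins *Arhgap19* (log2 fold change -0.63, adjusted p = 0.0267) and, for Arf, *Asap1* (log2 fold change -0.56, adjusted p = 0.00312) fell too. Of 46 Rab GTPases *Rab8b* rose (log2 fold change 0.60, adjusted p = 0.000948) and *Rab31* fell (log2 fold change -0.48, adjusted p = 0.00403). Of the 22 adhesion, matrix and cytoskeleton genes named as changed, 13 passed in each of the 15 further fits, whereas *Clu*, *Cyth3*, *Jaml*, *Cd9*, *St3gal6*, *Tubb6*, *Gsn*, *Arhgap19* and *Myo1f* did not (highest adjusted p 0.109 to 0.284).

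Large families of basic cell functions held 0 DEGs by limma-voom, and edgeR and DESeq2 called none of their members either. The 79 tested cytosolic ribosomal protein genes had 0 genes at an unadjusted p under 0.05, and log2 fold changes from -0.17 to 0.17. At an unadjusted p under 0.05, where 12.8% of all genes tested lay, stood 7 of the 79 nuclear genes of oxidative phosphorylation, 4 of 76 mitochondrial ribosomal genes and 7 of 61 translation factors. The number was 6 of 64 cell cycle and replication genes, 2 of 36 genes of cholesterol and fatty acid synthesis and 3 of 32 of the unfolded protein response. It was 2 of 32 aminoacyl-tRNA synthetases, 1 of 23 heat shock genes and 8 of 101 F-box, Kelch and BTB genes. Among the genes of cell death, it was 5 of the 17 tested BCL2 family genes (29.4%) and 2 of the 28 of the apoptosome and its inhibitors (7.14%). The most abundant of each, *Mcl1* and *Birc5*, had log2 fold changes of 0.24 and -0.04. The 112 families examined together covered 2970 of the tested genes and 130 of the 248 DEGs, and 67 of them held at least 1 DEG. Of the 45 that held none, edgeR called a gene in 2 and DESeq2 in 0.

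Further named genes came from other families or from none. *B3gnt5*, a glycolipid glycosyltransferase, rose from 7.87 ± 0.787 to 24.2 ± 5.78 CPM (mean ± SD, n = 3, log2 fold change 1.60, adjusted p = 0.000376). *Oscp1* rose from 31.9 ± 3.12 to 81.9 ± 13.96 CPM (mean ± SD, n = 3, log2 fold change 1.37, adjusted p = 6.36e-06). The iron carrier transferrin (*Trf*) rose (log2 fold change 1.09, adjusted p = 3.07e-06), with 39.6% of its stretches also in an overlapping entry, *Gm20425*, that had 0 counts. *Cables1*, which passed the filter on low counts through the CGRP libraries, rose from 0, 3 and 2 counts to 25, 24 and 15 counts (log2 fold change 3.81, adjusted p = 0.000168). Both were picked after their values were seen. *Itih5*, an inhibitor heavy chain that binds hyaluronan, stood at 27.7, 24.9 and 26.7 CPM with saline and 7.96, 5.28 and 9.22 CPM with CGRP (log2 fold change -1.87 ± 0.24 SE, adjusted p = 5.72e-05). The phosphatase *Ubash3b* (log2 fold change -0.91, adjusted p = 0.00403) and the membrane-bending protein gene *Mtss1* (log2 fold change -1.35, adjusted p = 0.0152) fell. The lipid kinase *Pip5k1b* fell too (log2 fold change -1.05, adjusted p = 0.0302), and so did the quinone reductase *Nqo2*, overlapped on the other strand by *Serpinb6a* (log2 fold change -0.87, adjusted p = 0.000707).

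Ubiquitin ligases *Rnf125* (log2 fold change 0.98, adjusted p = 0.000502) and *Trim25* (log2 fold change 0.61, adjusted p = 0.0343), which act on the RNA sensor RIG-I, rose. They were the only DEGs of 58 RING finger and 29 TRIM genes. The deubiquitinase *Usp34*, overlapped by *Ahsa2*, rose as the only one of 36 (log2 fold change 0.38, adjusted p = 0.0389). Of 184 zinc finger genes *Zfp523* rose (log2 fold change 1.58, adjusted p = 0.0101). Of 46 DEAD and DEAH box helicases *Ddx50* rose (log2 fold change 0.69, adjusted p = 0.0102), and of 34 histones *Hist1h1c* (log2 fold change 0.41, adjusted p = 0.0376). The receptors *Gpr132* (log2 fold change 0.86, adjusted p = 0.0417) and *Gpr171* (log2 fold change 1.07, adjusted p = 0.00926) rose. *Tmem216*, overlapped by *Cpsf7*, was the 1 DEG of 122 genes named Tmem, and fell (log2 fold change -0.42, adjusted p = 0.0472). Of 6 tested mitochondrially encoded genes *mt-Co1* rose (log2 fold change 0.35, adjusted p = 0.029), with 95.5% of the stretches in its last 500 bases also present in another gene entry, *Gm29216*. Of the 19 genes named as changed in the last 2 paragraphs, 7 passed in every other fit, *Cables1* in 14 of the 15 with no adjusted p given by DESeq2, and *Mtss1*, *Pip5k1b*, *Trim25*, *Usp34*, *Zfp523*, *Ddx50*, *Hist1h1c*, *Gpr132*, *Gpr171*, *Tmem216* and *mt-Co1* did not (highest adjusted p 0.0815 to 0.253).

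The neutrophil response was set beside that of macrophages, bone marrow monocytes grown for 3 days with M-CSF and given the same CGRP dose for the same time. Of the 248 neutrophil DEGs, 203 were tested in macrophages and 82 of these were DEGs there too (40.4%), 78 in the same direction. Of all 8635 genes tested in both cell types, 7.25% were macrophage DEGs. The difference in response was tested as an interaction over all 12 libraries and was called for 252 of 10694 genes (2.36%), among them 44 of the neutrophil DEGs, 39 of those higher and 5 of those lower with CGRP (41 of the 44 were also tested in macrophages alone). The 5 neutrophil DEGs with the smallest adjusted p each rose in both cell types and rose less in neutrophils. The log2 fold change of *Pde4b* was 0.60 in neutrophils and 3.45 in macrophages (difference -2.86 ± 0.21 SE, adjusted p = 1.98e-08). That of *Cytip* was 0.73 in neutrophils and 3.35 in macrophages (difference -2.64 ± 0.23 SE, adjusted p = 4.07e-07). That of *Thbs1* was 2.39 in neutrophils and 5.02 in macrophages (difference -2.64 ± 0.24 SE, adjusted p = 4.84e-07). It was 0.79 in neutrophils and 2.38 in macrophages (difference -1.60 ± 0.15 SE, adjusted p = 5.66e-07) for *Cd14*. For *Il1b* it was 1.06 in neutrophils and 3.71 in macrophages (difference -2.66 ± 0.31 SE, adjusted p = 1.26e-05). Others, picked after their values were seen, rose in neutrophils and fell in macrophages. The log2 fold change of *Gadd45g* was 0.87 in neutrophils and -0.90 in macrophages (difference 1.77 ± 0.29 SE, adjusted p = 0.000758). That of *Tnip3* was 0.90 in neutrophils and -0.91 in macrophages (difference 1.79 ± 0.37 SE, adjusted p = 0.0069), and that of *Cd200r1* 0.78 in neutrophils and -0.64 in macrophages (difference 1.40 ± 0.26 SE, adjusted p = 0.00218). *Hdac5* went the other way, at -0.45 in neutrophils and 0.95 in macrophages (difference -1.40 ± 0.19 SE, adjusted p = 5.77e-05). In simulated counts with a true log2 difference of 1, the interaction was called for 35.8% of 95 genes. A gene without an interaction call can therefore still differ between the cell types. The macrophages had been cultured for 3 days and the neutrophils were used fresh, so that cell type and culture cannot be told apart.

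**Figure D5:**
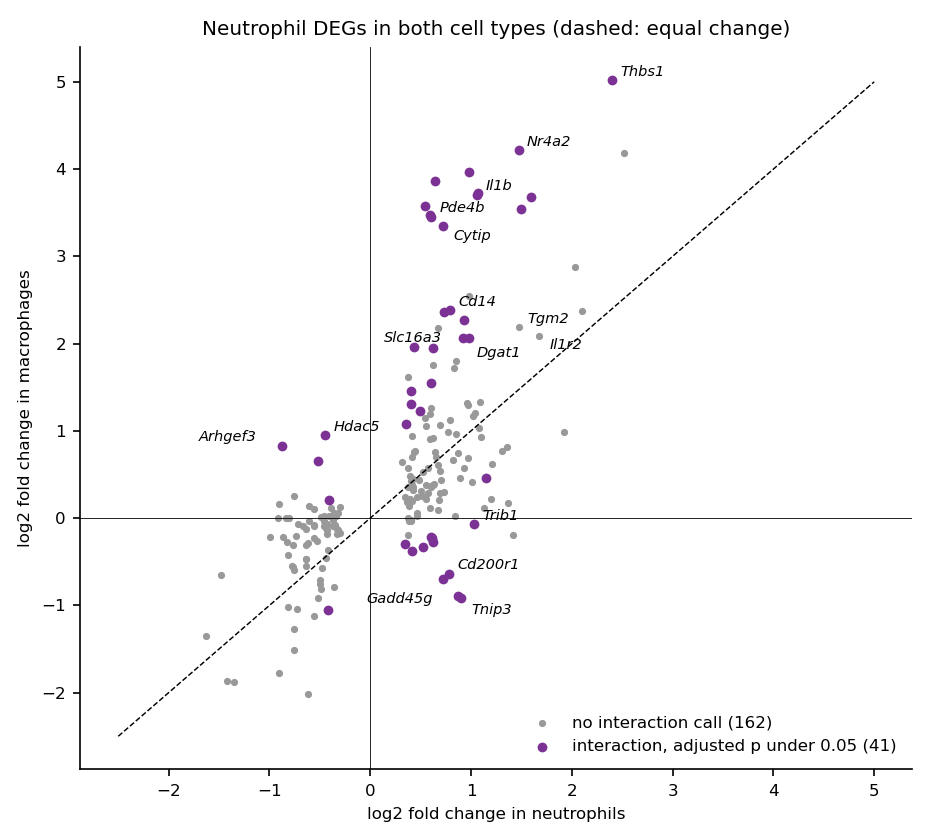
Log2 fold change (CGRP over saline) in neutrophils (horizontal axis) and in macrophages (vertical axis) for the 203 neutrophil DEGs tested in both, with a dashed line of equal change. Purple points are the 41 genes with an interaction call and grey points the 162 without, and *Pde4b*, *Cytip*, *Thbs1*, *Il1b* and *Cd14* lie above the line, with the larger rise in macrophages.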

How the data were processed

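Raw counts per gene, deposited for neutrophils and for macrophages, came per the labels and the study's methods from 3′ libraries primed on poly(A) with unique molecular identifiers. The authors aligned reads to GRCm38 with STAR and counted them with featureCounts; the annotation release, the strand setting and any filter are not given in the sources used here. Identifiers were named from GENCODE M21 (52489 of 52636 matched). Genes passing filterByExpr (9819) were scaled by TMM and tested with limma-voom (limma 3.58.1, edgeR 4.0.16, R 4.3.3), CGRP against saline, two-sided, with Benjamini–Hochberg adjustment over all genes tested and a threshold of 0.05. The response was compared with that of macrophages by an interaction over 12 libraries. The authors' methods name limma, which set the choice of test. The scripts were tested on simulated data.

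Library totals were 2196558 to 3631989 counts, the 10 most abundant genes took 20.1% to 25.7% of them, and mitochondrial genes 1.24% to 1.49%. No pair of libraries was as alike as repeats of 1 library. Genes were named by a rule: the 12 largest rises and falls among DEGs with separate groups and a mean of at least 10 CPM, DEGs of the gene lists with the smallest adjusted p, and the 5 DEGs with the smallest interaction p. Members and lists were chosen with earlier results of these data known. Motifs were searched in RefSeq promoters of 300 bases. Some results are not reported here. Alternatives used edgeR, DESeq2 1.42.0, other scalings and filters, quality weights, thinning, a replicate block and the loss of each library.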

Additional observations from a re-analysis of the deposited data

Results flagged for a closer look

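The 5 neutrophil DEGs with the smallest adjusted p for the interaction were singled out because CGRP changed them by different amounts in the 2 cell types, and the difference itself was tested over all 12 libraries with limma-voom. The log2 fold change in neutrophils minus that in macrophages was -2.863 for *Pde4b*, -2.663 for *Il1b*, -2.642 for *Thbs1*, -2.642 for *Cytip* and -1.603 for *Cd14*. Each gene rose in both cell types, and each difference passed in the 18 other fits (highest adjusted p 0.000538, for *Il1b*). With 3 libraries a group, no search for single outlying libraries was made.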

How the results depend on the processing

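None of the 248 DEGs changed sign in any of 15 other fits, and their number was 187 with DESeq2, 253 with edgeR, 250 with DESeq2 size factors, 214 with library totals in place of TMM, 238 with a mean of at least 10 counts, 271 with quality weights and 198 after thinning. Without a filter on low counts 155 genes were called higher and 152 lower, so that the excess of higher genes was nearly lost, against 150 and 64 with library totals, and a fold over 1.5 left 151 DEGs, 52 of them lower. Leaving out 1 library gave 138 to 234 DEGs, 79 to 146 of them higher and 53 to 97 lower, and 110 of the 248 DEGs passed in all 6 such fits. The loss of saline replicate 1, saline replicate 2 or CGRP replicate 2 cost the most. The cause was not tested, beyond the smaller number of libraries. Of 145 genes named as changed, 67 passed in each of the 15 fits, and *Ramp3*, *Cables1* and *Slco4a1* in the 14 that gave them an adjusted p. *Krt86*, which was not called, reversed to a log2 fold change of -0.0203 without saline replicate 1 and reached 0.32 without saline replicate 3. The interaction gave 149 calls without macrophage saline replicate 1 and 328 without macrophage CGRP replicate 1, with 28 and 50 neutrophil DEGs among them. The replicate numbers share no stated source, and deviations of same-numbered neutrophil libraries correlated at 0.0421, -0.013 and 0.137, so that the numbers were not taken to pair them. With a replicate block 266 DEGs were called, 164 higher and 102 lower. Not every library correlated best with its own number. At a depth of 2196558 to 3631989 counts 9819 of the 52636 genes of the table were tested, and low counts left the rest below the filter.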
